A study of Mus musculus with 2 samples.

Results

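Smooth muscle nuclei of the mouse colon were taken from single-nucleus RNA sequencing of whole frozen colon after chronic colitis. Nuclei with 400 to 5000 detected genes and at most 10% mitochondrial UMIs (unique molecular identifiers, each standing for 1 captured RNA molecule) were kept. A nucleus was a member if at least 5 of the 10 genes Myh11, Actg2, Synpo2, Myocd, Carmn, Lmod1, Pgm5, Sntg2, Dmd and Cacnb2 had a UMI in it and these genes together held at least 0.5% of its UMIs. This rule found 317 nuclei of 9586, of which 214 of 4884 came from the WT library and 103 of 4702 from the HIF-1α KO library.

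The HIF-1α KO mice were Ncr1cre+ Hif-1α fl+/fl+, in which the promoter of Ncr1, the gene for NKp46, drives the Cre recombinase and deletes Hif1a in NKp46+ innate lymphoid and natural killer cells, so that smooth muscle itself was not the target of the deletion. The controls were WT littermates, and mice of 8 to 12 weeks of age were treated. Every animal of both groups drank 2% dextran sodium sulfate (DSS), which injures the colonic mucosa, for 3 days followed by 4 days of recovery in each of 4 cycles. Each genotype was measured in 1 library pooled from 3 animals, so no difference between genotypes below has a replicate check, no test was made, and every interval (95%) covers counting error only.

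Smooth muscle forms the outer muscle coat of the colon and the thin muscle layer under the mucosa. It contracts when calcium enters through voltage-gated channels or leaves internal stores, binds calmodulin and switches on myosin light chain kinase, and it relaxes through nitric oxide, cyclic nucleotides and their kinases. Its contractile genes are driven by serum response factor together with myocardin, the product of Myocd, which bind the CArG box in DNA, and muscle cells can lower these genes and make more matrix when tissue is injured.

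The smooth muscle nuclei held 541819 UMIs in WT and 423127 in HIF-1α KO, with a median of 2185 (range 1212 to 16241) and 2913 (1006 to 17626) per nucleus. The other nuclei had medians of 2052 and 4206, so HIF-1α KO had the higher median depth in both sets of nuclei. The median number of detected genes was 1277 and 1659 in smooth muscle nuclei. The libraries shared 3 barcodes, none of which was a member. Doublets were not removed, and counts of other cells' markers in the members are given beside the results they touch.

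All 10 genes of the rule were detected in the members of both libraries. The number of rule markers per nucleus differed between the libraries: 5 or 6 in 29.9% of members from WT and 26.2% of those from HIF-1α KO, 7 or 8 in 38.8% and 20.4%, and 9 or 10 in 31.3% and 53.4%. The median depth of these classes was 1594, 2120 and 3014 UMIs in WT and 1735, 2058 and 4993 UMIs in HIF-1α KO, so the class with most markers was also the deepest. At the edge of the rule, 33 WT and 13 HIF-1α KO members had exactly 5 markers, with a median of 1.02% and 1.07% of their UMIs in marker genes, and 28 and 13 nuclei with 4 markers stayed out at medians of 0.749% and 0.823%. Another 26 and 14 nuclei had 5 or more markers but stayed under 0.5%, at medians of 0.347% and 0.25%.

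**Figure D1:**
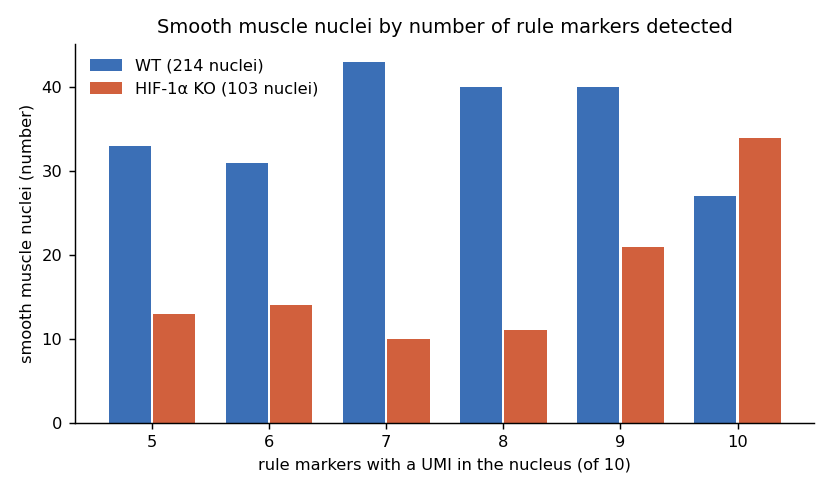
Number of smooth muscle nuclei (vertical axis) by how many of the 10 rule markers had a UMI in the nucleus (horizontal axis), as bars for WT (214 nuclei) and HIF-1α KO (103 nuclei). The HIF-1α KO bars are tallest at 10 markers, with 34 nuclei, whereas the WT bars are tallest at 7, with 43 nuclei.

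The rule fixed which nuclei carry these 10 genes, so their levels only describe the members. Levels are given as CPM, the UMIs of a gene per 1000000 UMIs summed over all smooth muscle nuclei of a library. Myh11, the smooth muscle myosin heavy chain (chr16:14194535-14291372, GRCm38, minus strand), held 2639 CPM in WT and 5131 in HIF-1α KO, against 75.8 and 34.7 in all other nuclei. Actg2, the enteric gamma actin (chr6:83512905-83536265, minus strand), held 1849 and 4339 CPM against 19.0 and 13.2. Lmod1, which nucleates actin filaments, held 282 and 574 CPM. The 10 genes together held 17342 and 24837 CPM, against 508 and 226 CPM in all other nuclei.

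The ratio between the libraries was uneven over the 10 genes. Actg2 was higher in HIF-1α KO by 1.23 on the log2 scale (1.12 to 1.34), Lmod1 by 1.02 and Myh11 by 0.96. Sntg2 and Synpo2 had log2 ratios of 0.67 and 0.51, and Dmd, which encodes dystrophin, had 0.12. Myocd itself had 401 UMIs in WT and 263 in HIF-1α KO, or 740 and 622 CPM, a log2 ratio of -0.25, and the calcium channel subunit Cacnb2 had -0.20. Myocd and Cacnb2 thus lay on the other side of 0 from the remaining 8 genes.

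The CArG box, the element that serum response factor binds, was searched by name on both strands of promoter windows from 250 bases before to 50 bases after each gene's start, taken from RefSeq (GRCm38.p6). The windows that hold it are shown because they mark which of the genes described here have this letter pattern in such a window. Of the 26 genes of the contractile list described below 22 had a window and 3 held a box (Myl9, Vcl and Myl6). Over all genes with a window, 488 of 27025 (1.81%) held one. A gene entered once if any of its windows held the box, and the number of windows per gene was not taken into account. Of the 10 rule markers 6 had a window and 1, Dmd, held a box, and Myom1 was the only one of 14 matched genes among those most enriched in smooth muscle. The sequences run 5′ to 3′ on the strand of the gene, with the box in capitals.
Myl9 (chr2:156775293-156775322, plus strand, box beginning 161 bases before the start): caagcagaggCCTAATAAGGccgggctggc
Vcl (chr14:20929161-20929190, plus strand, 227 bases before): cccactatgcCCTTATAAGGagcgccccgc
Myl6 (chr10:128493040-128493069, minus strand, 50 bases before): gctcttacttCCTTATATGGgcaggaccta
Dmd (chrX:82948762-82948791, plus strand, 98 bases before): catgggcagtCCTATTATGGgaaagcaact
Myom1 (chr17:71019448-71019477, plus strand, 99 bases before): gccttcctggCCATAAAAGGctggctgtgg
The starts are those of RefSeq transcripts, and the Myom1 and Myl6 boxes lie inside the genes as GENCODE M21 draws them (chr17:71002633-71126856 and chr10:128490860-128494145), at starts internal to them. A match of letters is a description and not a binding site. The motif GGAATG of the TEAD factors, searched on both strands, can overlap either end of a box. It lay in a window of 10 of the 22 matched contractile genes (45.5%) and of 16.6% of all genes with a window.

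Smooth muscle made up 4.38% of WT nuclei (exact binomial interval 3.82 to 4.99%) and 2.19% of HIF-1α KO nuclei (1.79 to 2.65%), a log2 ratio of -1.0 (-1.35 to -0.65). The share of nuclei was thus 2.00-fold lower in the HIF-1α KO library. Nuclei carrying at least 4 of 10 fibroblast markers were also fewer, 29 in WT and 14 in HIF-1α KO. The intervals of their share were 0.398 to 0.852% and 0.163 to 0.499%. There were 7.38 and 7.36 smooth muscle nuclei for each of them, ratios that so few fibroblast nuclei place only loosely. Nuclei carrying at least 4 of 10 epithelial markers made up 31.1% and 49.1%. Both sets also required at least 0.5% of UMIs in their markers. The number of markers found depends on depth, and nuclei outside smooth muscle had median depths of 2052 and 4206 UMIs. In those nuclei epithelial markers held a median of 0.747% and 0.958% of UMIs, above the 0.5% limit. The part of depth in these shares was not tested. Among the nuclei outside that epithelial set, smooth muscle made up 6.36% of 3367 and 4.30% of 2395, a log2 ratio of -0.56. Fewer muscle nuclei and more epithelial nuclei cannot be told apart in shares of a library.

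Apart from the rule markers, the genes most enriched in smooth muscle nuclei over all other nuclei of the same library were led by Wscd2, Jph2 and Frem2. Because the nuclei were chosen by muscle genes, this comparison describes them and tests nothing. A gene was counted where the smooth muscle nuclei of the libraries together held at least 50 UMIs, which 3728 genes did. Of these, 600 (16.1%) were at least 2-fold higher in smooth muscle than in other nuclei in both libraries with intervals apart, and 349 (9.36%) were at least 2-fold lower. Wscd2 led with a level of 168 CPM in WT and 206 in HIF-1α KO, against 3.15 and 1.47 CPM in other nuclei, a log2 ratio of at least 5.74 in each library. Jph2, which couples internal calcium stores to the cell membrane, followed with 229 and 345 CPM against 4.72 and 1.98.

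The 20 leading genes also held Myom1, a myosin-binding sarcomere protein (657 and 631 CPM), Pdlim3, a partner of alpha-actinin (546 and 1047 CPM), and Ryr3, a calcium release channel (759 and 1009 CPM). Chrm2, the M2 muscarinic acetylcholine receptor, stood at 1198 and 1770 CPM against 36.6 and 15.3 in other nuclei. The whole set lay between log2 4.70 and 5.74 by the lower of the 2 libraries. Against the fibroblast set, the most like class but of few nuclei, 189 genes (5.07%) were at least 2-fold higher and 135 (3.62%) lower in both libraries.

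Between the genotypes, most smooth muscle genes had similar levels: over the 3728 genes the median log2 ratio of HIF-1α KO over WT was 0.02, with an interquartile range from -0.23 to 0.31. A gene is called higher or lower here where the ratio was at least 2-fold and the exact Poisson intervals of its CPM did not overlap. By this rule 96 genes (2.58%) rose and 67 (1.8%) fell in HIF-1α KO smooth muscle, or 163 (4.37%) in all. In all other nuclei, which were sequenced to a different depth, the same rule called 777 of 14282 genes (5.44%) higher and 1016 (7.11%) lower. The split of calls depended on scaling: with totals that leave out mitochondrial genes, Malat1, Gm42418 and AY036118 it was 72 higher and 82 lower, a scaling that moved the median of all genes to -0.06, and with median-of-ratios factors it was 76 and 78.

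**Figure D2:**
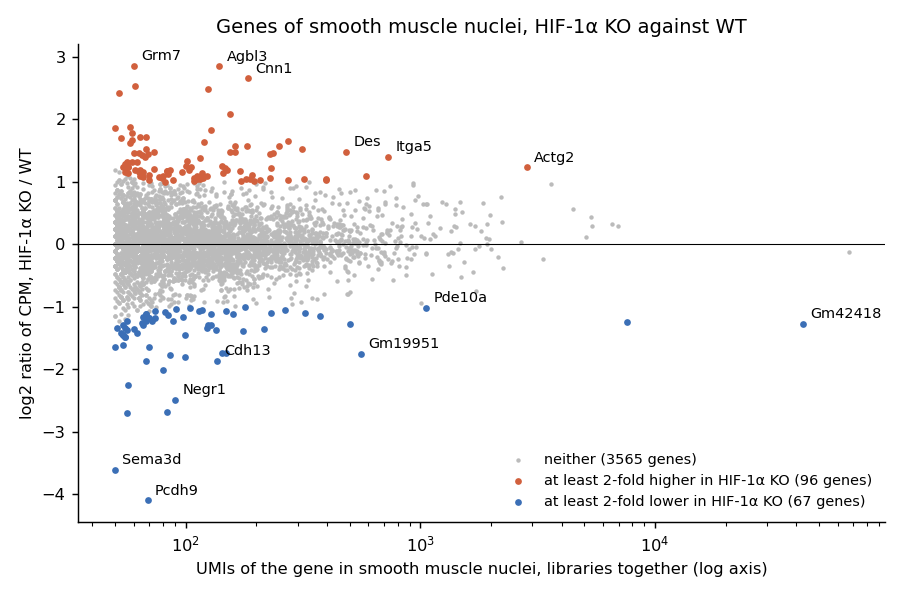
Log2 ratio of CPM, HIF-1α KO over WT (vertical axis), against the UMIs of the gene in smooth muscle nuclei of both libraries on a log axis (horizontal axis), 1 point for each of 3728 genes. Orange points are the 96 genes at least 2-fold higher in HIF-1α KO and blue points the 67 lower, with intervals apart, and the widest ratios, down to -4.10 for Pcdh9, lie at low UMI counts.

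Contractile genes lay almost all on the higher side in HIF-1α KO. Of 26 genes in the list, none of them a rule marker, 25 were counted, 24 of which had a positive log2 ratio, against 51.9% of all genes. Their median log2 ratio was 0.67, and their sum was 25850 CPM in WT and 36734 in HIF-1α KO, a log2 ratio of 0.51 (0.47 to 0.54), while in all other nuclei the same genes summed to 3465 and 3284 CPM. By the call rule 4 rose (Cnn1, Des, Synm and Tpm2) and 0 fell, beside 2.58% and 1.8% of all genes. The goblet markers, which belong to another cell type, had a median of 0.65 with 6 of 7 counted genes above 0, and the epithelial markers a median of 0.31 with 8 of 9 above 0, in the same nuclei. Their part in the contractile ratios was not tested.

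Cnn1 encodes calponin, which binds actin and slows myosin (chr9:22099216-22109630, plus strand). It had 31 UMIs in 20 of 214 WT nuclei and 153 UMIs in 42 of 103 HIF-1α KO nuclei, or 57.2 and 362 CPM. Its level was thus higher in HIF-1α KO by 2.66 on the log2 scale (2.10 to 3.27), and by 2.42 without the nucleus that held most of its UMIs in each library. Other nuclei had 8.57 and 6.47 CPM.

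Des, the intermediate filament desmin (chr1:75360329-75368579, plus strand), had 152 and 332 UMIs, or 281 and 785 CPM, and rose by 1.48 (1.20 to 1.77), against 15.9 and 11.7 CPM in other nuclei. Synm, which joins desmin filaments to adhesion sites, had 82 and 149 UMIs, or 151 and 352 CPM, and rose by 1.22 (0.82 to 1.63), but by 0.99, under the 2-fold limit, without the top nucleus of each library. Tpm2, a tropomyosin that lies along the actin filament, had 62 and 109 UMIs, or 114 and 258 CPM, and rose by 1.17 (0.71 to 1.64). All 4 were above their level in other nuclei in both libraries.

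Other contractile genes had positive log2 ratios under the 2-fold limit. Acta2, the alpha smooth muscle actin (chr19:34241090-34255590, minus strand), had 493 and 898 CPM, a log2 ratio of 0.87 (0.64 to 1.10), and Tagln, an actin-bundling protein, had 216 and 402 CPM and 0.90. Myosin light chain kinase (Mylk) had 578 and 926 CPM and 0.68, and its opposing phosphatase subunit Ppp1r12b had 687 and 1319 CPM and 0.94. Abundant members had smaller ratios: Lpp, an adhesion protein, had 6150 and 7681 CPM and 0.32, and Ppp1r12a, a phosphatase subunit, had 1763 and 2441 and 0.47. Tpm1 stood at 1521 and 1534 CPM, and Flna, which crosslinks actin, at 1536 and 1454 CPM was the only member below 0, at -0.08.

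**Figure D3:**
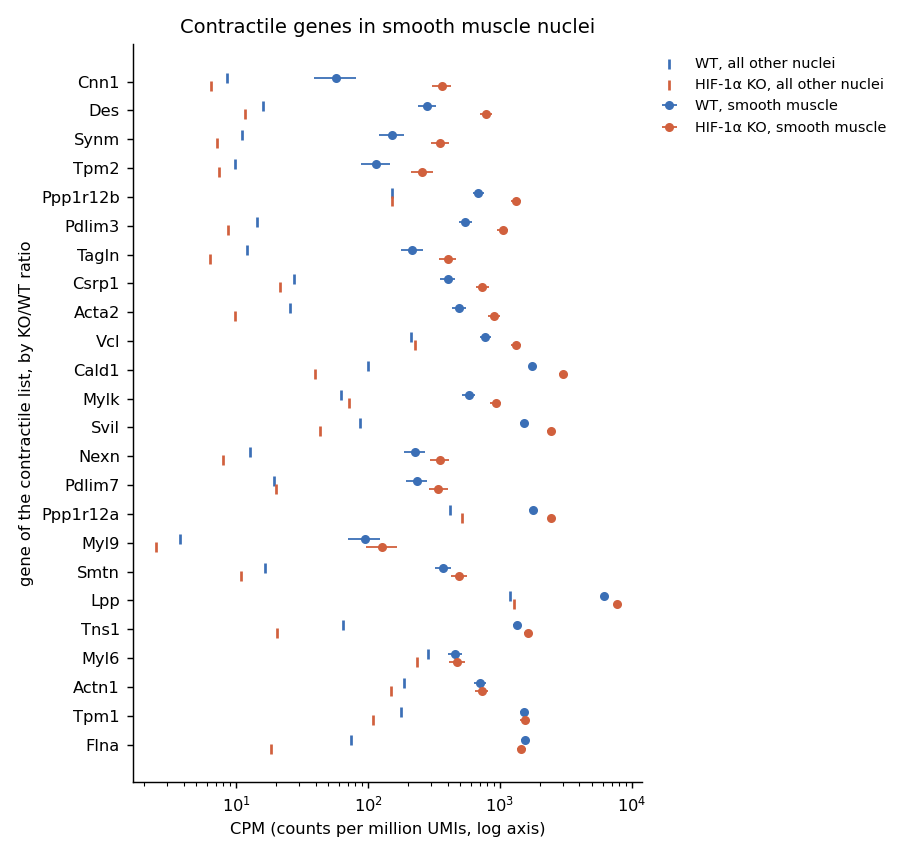
CPM on a log axis (horizontal axis) of 24 of the 25 counted contractile genes (vertical axis, ordered by ratio) in WT and HIF-1α KO. Circles with exact 95% Poisson intervals are smooth muscle nuclei and ticks are all other nuclei of the same library; HIF-1α KO lies to the right of WT for every gene shown but Flna, and Cnn1 has the widest gap, 57.2 to 362 CPM.

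The contractile list was also read within single nuclei. It held a median of 2.12% of a WT nucleus's UMIs (0.516 to 6.03%) and 2.96% of a HIF-1α KO nucleus's (0.801 to 6.97%), and the ranges of the libraries overlapped over most of their length. Other nuclei had medians of 0.329% and 0.314%. In nuclei with 5 or 6 rule markers the medians were 1.48% in WT and 1.98% in HIF-1α KO, with 7 or 8 they were 2.04% and 2.35%, and with 9 or 10 they were 3.12% and 4.05%. The median was higher in HIF-1α KO within each class of marker number, and in both libraries it was higher in the classes with more markers, which the HIF-1α KO members more often filled. With members thinned to 1000 UMIs each, the median log2 ratio of the list was 0.64, and over all settings tried it was at most 0.69 and was below 0 (-0.16) only where 1 HIF-1α KO nucleus was left.

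**Figure D4:**
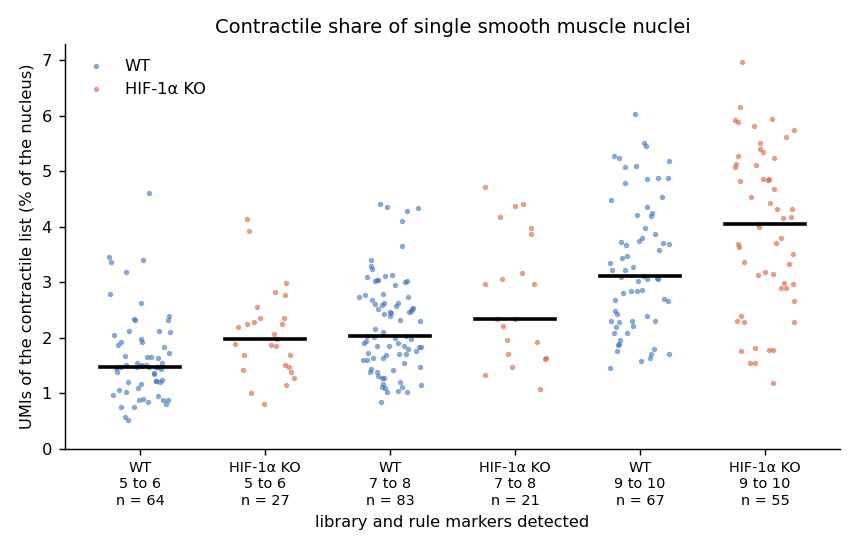
Share of a nucleus's UMIs in the contractile list in % (vertical axis) for each smooth muscle nucleus, by library and number of rule markers detected (horizontal axis), with black bars for medians. The medians are 1.48, 2.04 and 3.12% in WT and 1.98, 2.35 and 4.05% in HIF-1α KO, and the points of the libraries overlap in each class.

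Single genes differed over the classes of marker number. Cnn1 had 0 UMIs in the 64 WT nuclei with 5 or 6 markers, which allows up to 32.6 CPM, then 31.1 CPM with 7 or 8 and 106 CPM with 9 or 10, and in HIF-1α KO it had 176, 263 and 406 CPM. Des had 115, 212 and 416 CPM in WT and 723, 424 and 850 CPM in HIF-1α KO. Cnn1 and Des were therefore higher in HIF-1α KO within every class, by counts of few nuclei. Acta2 was not: it had 274, 409 and 667 CPM in WT and 274, 667 and 1033 CPM in HIF-1α KO, the same level in the class with fewest markers.

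For Cnn1 and Des the share of nuclei with a UMI gave the same order at equal depth, in members chosen at full depth. At 1000 UMIs per nucleus Cnn1 was detected in 4.67% of smooth muscle nuclei from WT and 19.4% of those from HIF-1α KO, against 0.923% and 0.527% of the epithelial set, which should lack it. Des was detected in 23.4% and 38.8% against 1.65% and 1.41%. Actg2 was detected in 55.1% and 70.9% against 1.91% and 1.41%. As a rule marker Actg2 helped to choose the nuclei, so these shares only describe them. Without thinning, Cnn1 was in 9.35% and 40.8% of the smooth muscle nuclei. The epithelial set had median depths of 2388 and 4411 UMIs, and 30 of its HIF-1α KO nuclei were too shallow to thin.

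The transcription factors of visceral muscle, of which 17 of 24 were counted, had 0 members called in either direction (4.37% of all genes were) and a median of 0.18. Foxp1 was the most abundant, at 1988 and 1990 CPM. Foxp2 (1015 and 1614 CPM, log2 ratio 0.67), Meis2 (1063 and 1669 CPM, 0.65) and Meis1 (509 and 775 CPM, 0.61), homeobox and forkhead factors, were above 0. The myocardin-related coactivators of serum response factor were below 0, with Mrtfa at 364 and 286 CPM (-0.35) and Mrtfb at 203 and 147 CPM (-0.47), as was Tead1 at 770 and 678 CPM (-0.18).

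Among calcium and ion channel genes 22 of 29 were counted, 0 were called, against 4.37% of all genes, and the median was 0.07. The L-type calcium channel Cacna1c, which lets in the calcium that starts contraction, had 5072 CPM in WT and 6178 in HIF-1α KO, a log2 ratio of 0.28. The large-conductance potassium channel Kcnma1, which limits that entry, had 4751 and 6461 CPM and 0.44. The calcium release channels differed in sign, with Ryr2 at 849 and 688 CPM (-0.30, -0.52 to -0.09) and Ryr3 at 759 and 1009 CPM (0.41, 0.21 to 0.61). The plasma membrane calcium pump Atp2b4 had 472 and 792 CPM and the highest ratio of those with over 100 UMIs, 0.74, still under the limit, and the stretch-activated channel Piezo1 had 49 and 21 UMIs and -0.87.

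Receptors for transmitters and hormones were sparse, with 5 of 27 counted and 0 called, against 4.37% of all genes. Chrm2 (chr6:36388084-36528414) had 649 UMIs in WT and 749 in HIF-1α KO, a log2 ratio of 0.56 (0.41 to 0.72), and the M3 receptor Chrm3, which couples acetylcholine to contraction, had 491 and 733 CPM and 0.58. Tacr1, a receptor for substance P, went the other way with 202 and 81 UMIs, or 373 and 191 CPM, a log2 ratio of -0.96 (-1.35 to -0.58) that ended just short of 2-fold and ranged from -1.42 to -0.82 over the settings tried. At 1000 UMIs per nucleus Chrm2 was found in 42.5% and 54.4% of smooth muscle nuclei and Tacr1 in 17.8% and 10.7%, against 3.16% and 1.10% and 1.19% and 0.176% of the epithelial set.

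The nitric oxide and cyclic nucleotide list held genes of the relaxing arm and also phosphodiesterases, which break cyclic nucleotides down. Of its 15 genes 11 were counted, with a median of -0.24 over both kinds. By the call rule 0 rose and 1 fell, beside 2.58% and 1.8% of all genes. The gene that fell was Pde10a, a phosphodiesterase that breaks down cAMP and cGMP. It had 763 and 295 UMIs, or 1408 and 697 CPM, and a log2 ratio of -1.01 (-1.21 to -0.82), while other nuclei had 112 and 31.7 CPM and the fibroblast set 842 and 849 CPM. The cGMP-dependent kinase Prkg1, the main effector of nitric oxide in muscle, stood at 2737 and 2815 CPM, a log2 ratio of 0.04. Pde7b had 367 and 213 CPM (-0.79), and Pde4d, the most abundant phosphodiesterase, had 3702 and 3129 CPM (-0.24).

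The dystrophin complex, which ties the actin skeleton to the matrix, had 7 of 14 genes counted and a median of -0.15. Of these genes 0 were called, against 4.37% of all genes. Dtna, a dystrophin-binding protein and among the 20 genes most enriched in smooth muscle, had 585 and 801 CPM, a log2 ratio of 0.45, whereas the sarcoglycan Sgcd had 749 and 622 CPM and -0.27. Of the integrins and adhesion genes 20 of 24 were counted, with a median of -0.01, and 1 rose and 1 fell, where 2.58% and 1.8% of all genes did.

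Itga5, the alpha chain of the main fibronectin receptor (chr15:103344286-103366763, minus strand), rose from 439 to 1160 CPM (238 and 491 UMIs), a log2 ratio of 1.40 (1.18 to 1.63), while other nuclei had 25 and 17.7 CPM and the fibroblast set 139 and 156 CPM. By class of marker number it had 221, 373 and 599 CPM in WT and 586, 869 and 1296 CPM in HIF-1α KO, so each HIF-1α KO class was above the matching WT class. Over the alternative settings tried its ratio ranged from 0.97 to 1.41. Tln2, a talin that links integrins to actin, fell from 153 to 73.3 CPM (-1.06, -1.71 to -0.45, and -0.78 where markers had to hold 1% of UMIs), and in other nuclei it had 215 and 91.8 CPM. Itga1, a collagen receptor chain, had 875 and 1368 CPM and 0.65, and Itgb1, the partner chain of both, 541 and 612 CPM and 0.18.

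Matrix genes lay on both sides of 0. The interstitial matrix list had 17 of 26 genes counted and a median of 0.08. By the call rule 0 rose and 1 fell, beside 2.58% and 1.8% of all genes. Fibronectin (Fn1), the ligand of the Itga5 receptor, had 418 and 535 UMIs, or 771 and 1264 CPM, a log2 ratio of 0.71 (0.53 to 0.90), and Postn, which crosslinks collagen, had 327 and 482 CPM and 0.56. The fibrillar collagens Col1a1 (102 and 87.4 CPM) and Col3a1 (388 and 373 CPM) had ratios of -0.22 and -0.05, and were at 1159 and 495 and at 2426 and 2845 CPM in the fibroblast set. Adamts9, a matrix protease, fell from 103 to 33.1 CPM (56 and 14 UMIs), a log2 ratio of -1.64 (-2.60 to -0.78), but of -0.24 with nuclei thinned before the rule, and Col12a1 had 216 and 109 CPM and -0.99.

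The basement membrane list, the sheet that wraps each muscle cell, had 8 of 19 genes counted and a median of 0.02. Of these genes 1 rose and 0 fell, where 2.58% and 1.8% of all genes did. Lama4, a laminin chain, rose from 131 to 284 CPM (71 and 120 UMIs, 1.11, 0.68 to 1.56), but by 0.33 with nuclei thinned before the rule, whereas Lamc1, its partner chain, had 221 and 137 CPM and -0.69, and Col4a1 had 404 and 364 CPM and -0.15. The study took a list of 15 mesenchymal genes from an earlier publication and used it to cluster nuclei of these same libraries. It named 7 matrix genes from the resulting clusters. The direction of either list here is therefore not independent evidence. In smooth muscle nuclei 13 of the mesenchymal genes were counted and 3 rose, with a median of 0.31 (2.58% of all genes rose). These were Des, Ptn and Actg2, the last of which is a rule marker that helped to choose the nuclei. Further, 6 of the matrix genes were counted, of which 0 rose and 1, Adamts9, fell, with a median of 0.01. Ptn, a secreted growth factor, had 138 and 381 CPM and a log2 ratio of 1.46 (1.05 to 1.87).

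In the list of TGF-β and bone morphogenetic protein (BMP) genes 22 of 33 genes were counted with a median of 0.03, 0 fell and 1 rose (beside 2.58% of all genes), Ccn1, a matrix-associated signal protein, from 17 to 41 UMIs (1.63, and 0.92 without the top nuclei). The BMP receptor Bmpr2 had 364 and 201 CPM (-0.86), and Grem1, a secreted BMP inhibitor, had 131 and 203 CPM (0.63). In the Wnt and Hedgehog list 5 of 21 were counted with a median of 0.24, and 0 fell and 1 rose (beside 2.58% of all genes). The gene that rose was Hhip, a Hedgehog-binding inhibitor, from 16 to 43 UMIs (1.78). Without the top nuclei it rose by 0.99, as 53.5% of its HIF-1α KO UMIs lay in 1 nucleus.

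The gene deleted in NKp46+ cells, Hif1a (chr12:73901375-73947530), had 80 UMIs in WT and 69 in HIF-1α KO smooth muscle, or 148 and 163 CPM, a log2 ratio of 0.14 (-0.34 to 0.63). Other nuclei had 173 and 200 CPM. This neither checks nor contradicts the deletion, since smooth muscle was not its target and a 3′ count need not lose signal with a deleted exon. Of 25 hypoxia and glycolysis genes 7 were counted, with a median of 0.14, and 0 were called, against 4.37% of all genes.

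**Figure D5:**
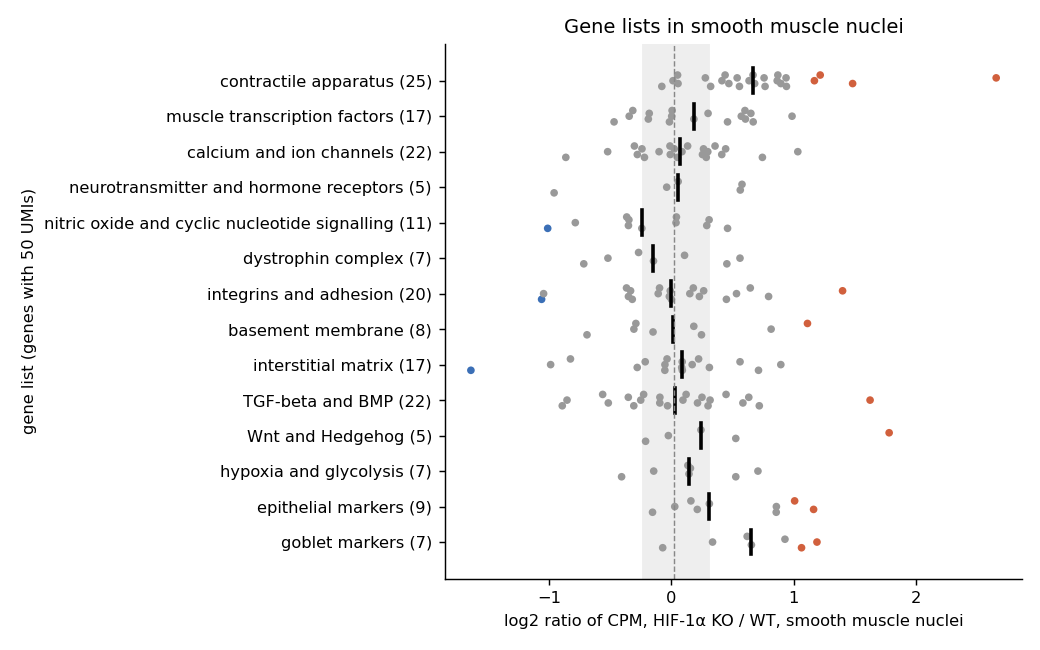
Log2 ratio of CPM, HIF-1α KO over WT (horizontal axis), for every counted gene of each list (vertical axis, number of counted genes in brackets) in smooth muscle nuclei. Orange and blue points are genes at least 2-fold higher and lower in HIF-1α KO with intervals apart, black bars are list medians, the dashed line is the median of all 3728 genes at 0.02 and the grey band their interquartile range, and the contractile median of 0.67 lies to the right of that band.

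Markers of epithelium were present in the smooth muscle nuclei at less than their level elsewhere, and at a higher sum in HIF-1α KO than in WT. At least 3 of the epithelial markers had a UMI in 114 of the 214 WT members and 94 of the 103 from HIF-1α KO. The 10 epithelial markers summed to 1884 CPM in WT and 2250 in HIF-1α KO members, against 4877 and 5759 in other nuclei, and the 8 goblet markers summed to 1362 and 2139 CPM against 3672 and 4462. By the call rule 2 of 9 counted epithelial markers (Krt20 and Myo1a) and 2 of 7 counted goblet markers (Spink4 and Agr2) rose, and 0 fell. Over all genes 2.58% rose and 1.8% fell. Muc2, the main mucin, was found at 1000 UMIs per nucleus in 31.8% and 52.4% of smooth muscle nuclei and in 48.7% and 53.5% of the epithelial set. Goblet markers were lowest in the nuclei with most muscle markers, at 1529, 1832 and 896 CPM in WT and 4046, 3253 and 1665 CPM in HIF-1α KO by class. Their part in the results above was not tested.

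Markers of fibroblasts, pericytes and vascular muscle summed to more CPM in the members than in other nuclei, and endothelial and immune markers to less. Fibroblast markers summed to 463 and 390 CPM, against 233 and 82.5 in other nuclei and 7693 in the WT fibroblast set. Of the 10, 3 were counted and 2 of these were at least 2-fold over other nuclei in both libraries. Pdgfra had 6 and 0 UMIs and Col14a1 0 and 2, and at least 3 of the markers had a UMI in 9 and 6 members. The pericyte and vascular muscle markers summed to 258 and 269 CPM against 44.7 and 27.0 in other nuclei. Of these 3 were counted, with a median log2 ratio of -0.48. By the call rule 1 rose, Rgs5, and 0 fell, beside 2.58% and 1.8% of all genes. Rgs5 had 22 and 47 UMIs and a log2 ratio of 1.45, whereas Cspg4 had -0.48 and Mcam -0.51. By class of marker number Rgs5 had 6, 8 and 8 UMIs in WT and 10, 1 and 36 in HIF-1α KO. Notch3 had 1 UMI in each library, and Higd1b, Ndufa4l2, Cox4i2, Heyl and Rergl had none in either. Of the markers of interstitial cells of Cajal, the pacemakers of the gut, Ano1 had 94 and 57 UMIs and Kit 9 and 12. No marker of endothelial, glial, neuronal, immune, skeletal muscle or mesothelial cells reached 50 UMIs, and the immune list had 66 and 38 UMIs in all.

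Outside the lists, the highest ratios belonged to genes of low count. After Grm7 (2.86, but 1.49 without the top nuclei, as 74.5% of its 51 HIF-1α KO UMIs lay in 1 nucleus), the highest was Agbl3 (chr6:34780432-34859459, plus strand), a carboxypeptidase that trims glutamate from tubulin tails. Agbl3 had 21 UMIs in 15 WT nuclei and 118 in 28 HIF-1α KO nuclei, or 38.8 and 279 CPM, a log2 ratio of 2.85 (2.17 to 3.59), against 5.19 and 4.18 CPM in other nuclei. P2ry14, a receptor for UDP-sugars, had 10 and 42 UMIs, or 18.5 and 99.3 CPM (2.43), and Cav1, the coat protein of caveolae, had 34 and 94 UMIs, or 62.8 and 222 CPM (1.82, 1.24 to 2.43). Their ratios without the top nuclei were 2.64, 2.13 and 1.74, so no single nucleus carried them.

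The rest of the 15 highest held Cnn1 and Hhip, described above, and genes of other roles. Dixdc1 of the Wnt pathway (1.88), Dcbld2 (1.72), the sodium pump regulator Fxyd6 (1.71) and the MAP kinase phosphatase Dusp10 (1.70) had 38 to 49 UMIs in HIF-1α KO and 15 to 19 in WT. Gas1, a Hedgehog co-receptor, had 1.87 but 0.95 without the top nuclei. Of the mitochondrial genes, mt-Cytb (2.49), mt-Nd2 (2.08) and mt-Nd5 (1.66) were among the 15, and a single nucleus per library held 60.9% of the UMIs of mt-Cytb in WT and 64.4% in HIF-1α KO. Mitochondrial UMIs were 0.210% of all in WT and 0.412% in HIF-1α KO smooth muscle, and 0.247% and 0.499% in other nuclei.

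The lowest ratio was that of Pcdh9, a protocadherin (chr14:93013410-93890679, minus strand). It had 66 UMIs in 27 WT nuclei and 3 in 3 HIF-1α KO nuclei, or 122 and 7.09 CPM, a log2 ratio of -4.10 (-6.42 to -2.49), and other nuclei had 80.1 and 32.8 CPM. In WT it had 283, 119 and 46.7 CPM in nuclei with 5 or 6, 7 or 8 and 9 or 10 rule markers, so it was highest where fewest muscle markers were found. Sema3d, a secreted guidance cue (chr5:12383385-12588948), had 47 and 3 UMIs, or 86.7 and 7.09 CPM (-3.61, -5.94 to -1.98), against 16.7 and 5.39 CPM in other nuclei. Negr1, a membrane-anchored adhesion protein (chr3:156561794-157316445), had 79 and 11 UMIs, or 146 and 26.0 CPM (-2.49, -3.55 to -1.57), against 166 and 95.9 CPM.

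The same end of the list held the alpha-catenin Ctnna2 (-2.70), the cadherin Cdh13 (112 and 24 UMIs, -1.87), the heparan sulfate genes Gpc6 (120 and 28 UMIs, -1.74) and Hs6st3 (-2.68, with 66.2% of its WT UMIs in 1 nucleus), and Igfbp5, which binds insulin-like growth factors (67 and 13 UMIs, -2.01). Nrg1, a ligand of ErbB receptors, had 116 and 27 UMIs (-1.75), or 214 and 63.8 CPM. That was below its 635 and 317 CPM in other nuclei and 11991 and 11267 CPM in the fibroblast set. The epithelial set had 180 and 55.4 CPM of Nrg1. In other nuclei the log2 ratio was -2.53 for Igfbp5, -1.64 for Gpc6 and -1.21 for Hs6st3. For Nrg1, Cdh13 and Ctnna2 it was -1.0, -0.86 and -0.36. Other nuclei are a pool whose make-up differed, as the epithelial set was 31.1% and 49.1% of kept nuclei. In the fibroblast set, of 29 and 14 nuclei, the ratio was -0.99 for Igfbp5, -0.51 for Gpc6, -0.09 for Nrg1 and 0.45 for Cdh13. Ctnna2 had 2 and 3 UMIs there and Hs6st3 0 and 3. The part of cell make-up in these ratios was not tested. Zhx3 (-2.26), Olfml2b (-1.87), the magnesium transporter gene Cnnm2 (-1.81), Anxa2 (-1.77) and Adamts9 completed the 15 together with a predicted gene. Their ratios in other nuclei were -0.16 for Zhx3, -2.09 for Olfml2b, 0.03 for Cnnm2, -0.88 for Anxa2 and -1.49 for Adamts9. Anxa2, at 129 and 37.8 CPM, was below its level in other nuclei in both libraries (251 and 137 CPM). So was Ctnna2, at 92.3 and 14.2 CPM against 145 and 113 CPM.

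Among the abundant transcripts, Gm42418 and AY036118, which overlap ribosomal RNA repeats and so are uncertain as genes, fell from 59756 to 24766 CPM and from 10601 to 4453 CPM. In other nuclei they went from 81279 to 28017 CPM for Gm42418, a difference of the libraries and not of muscle alone. Malat1, a nuclear RNA, took 71768 and 66039 CPM in smooth muscle and 34538 and 32321 CPM in other nuclei. After it the most abundant muscle transcript was Kcnip4, a potassium channel-interacting protein (chr5:48389502-49524907), at 6558 and 8014 CPM against 218 and 56.6 CPM in the fibroblast set.

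Variation between nuclei within a library was measured as the variance of a gene's residuals over nuclei under a Poisson model with each nucleus's total, where 1 is the value that counting alone gives. Its median was 1.18 over 2240 genes in WT and 1.37 over 1827 genes in HIF-1α KO. Of the 20 most variable genes in each library 14 (70% of each list) were shared. Gm42418 was highest in both (29.1 in WT and 27.5 in HIF-1α KO), followed by Kcnip4 (23.0 and 24.8) and Malat1 (19.5 and 24.0), and the shared genes also held AY036118, Pde10a (7.94 and 7.13), Chrm2 (7.37 and 7.28) and Actg2 (7.17 and 13.4). Kcnip4 had a UMI in 168 of 214 and 81 of 103 nuclei, and in single nuclei it reached 200 and 244 UMIs. Tacr1 (5.12 in WT, with a UMI in 61 of 214 nuclei), Enah and Slit3 were among the 20 in WT alone, and Myh11, Cald1, Kcnma1 and Fn1 in HIF-1α KO alone.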

How the data were processed

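The authors isolated nuclei from frozen colon, made 10x Genomics 3′ v3.1 libraries and ran Cell Ranger 7.0.1 on mm10 (per the submitters' processing notes). They deposited counts of UMIs per gene and nucleus (4896 WT and 4772 HIF-1α KO barcodes, 32285 features). Whether intronic reads were counted is not given in the sources used here. The depth was 13492810 and 25489277 UMIs.

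Nuclei were filtered and chosen as in the results. UMIs were summed over members per library and given as CPM with exact Poisson intervals, ratios with exact conditional intervals and shares with exact binomial (Clopper-Pearson) intervals, all at 95%. A count of 0 allows up to 3 counts. With 1 library per genotype no test was made. Described genes were those of 35 lists, the 15 highest and 15 lowest ratios among called genes, the 20 most enriched over other nuclei, the 20 most variable per library, the 20 with most UMIs, Hif1a, Malat1 and mitochondrial genes. Of the first, those with most UMIs or called were given values, and a few more were singled out after their values were seen. The members and lists were chosen with earlier results of these data known. Fibroblast and epithelial sets were non-members with at least 4 of 10 markers holding at least 0.5% of UMIs. Gene positions are from GENCODE M21 (GRCm38). Python 3.11.15, numpy 2.4.6, pandas 2.3.3, scipy 1.17.1 and matplotlib 3.10.9 were used, with edgeR 4.0.16 in R 4.3.3 for scaling factors alone. The call rule was tested on simulated data, and other membership rules, depths, scalings, minima and limits were tried as alternatives. A few genes of the lists are counted but not reported here by name.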

Additional observations from a re-analysis of the deposited data

How the results depend on the processing

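No paired analysis was possible because each genotype had 1 library. The log2 ratio of the smooth muscle share (-1.0) was -0.64 for nuclei with at least 8 markers (2.19% and 1.40%), -0.56 among nuclei outside the epithelial set, and -6.05 without nuclei with 3 or more markers of another cell type. That last setting kept 69 WT nuclei and 1 HIF-1α KO nucleus, since nearly all carried epithelial markers. It called 4 genes higher and 4 lower, and there Cdh13 (1.60), Gpc6 (0.91) and Pde10a (0.26) changed sign. Against 96 higher and 67 lower genes, 29 and 20 were called after thinning members to 1000 UMIs (12 and 10 of them among the first) and 19 and 9 after thinning before the rule (6 and 5), where Dcbld2 (-0.24), Dixdc1 (-1.34) and Spink4 (-0.017) changed sign. A minimum of 200 UMIs gave 16 and 10, a 3-fold limit 18 and 17, and genes above the level of all kept nuclei 51 and 28. A minimum of 20 UMIs gave 102 lower genes and at least 8 markers gave 41. The share of calls that were higher was 58.9%, but 46.8% with totals without abundant genes, 49.4% with median-of-ratios factors and 49.6% (70 and 71 genes, of which 65 and 54 were among the first) without each gene's top nucleus. Weighting each nucleus equally gave 128 and 78 (62.1%), of which 63 and 50 were among the first, and leaving out nuclei with 3 or more non-epithelial markers gave 91 and 71 (76 and 55). Of 3490 gene ratios recomputed, 6 of called genes changed sign and 423 others moved beyond their interval. The settings on 8 markers, non-epithelial markers, thinning before the rule, totals, top nuclei and denominator were chosen after seeing the data. The causes were not tested. Depth limits all genes under 50 UMIs, including most receptors and cytokines.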

Other observations

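Lists of stress, cytokine, clock and position genes gave 0 calls in smooth muscle nuclei, beside 2.58% higher and 1.8% lower over all genes. Of the immediate-early genes 4 of 23 were counted, with a median log2 ratio of 0.07. Egr1 (7 and 25 UMIs), Jun (8 and 21) and Nr4a1 (9 and 23), which answer within minutes to stimulation, stayed under the minimum of 50 UMIs and were singled out after their values were seen. Of the heat shock genes 3 of 13 were counted (median -0.31), and of the cytokine and NF-κB genes 7 of 26 (0.21), among which the interleukin-1 receptor Il1r1 had 99.7 and 56.7 CPM (-0.81) and the oncostatin M receptor Osmr 72.0 and 42.5 CPM (-0.76). Of the clock genes 4 of 15 were counted (-0.25), with Rora at 594 and 399 CPM (-0.57), against 184 and 45.1 CPM in other nuclei.

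Among the Hox genes, which mark position along the gut, Hoxa3 and Hoxb3 of the anterior list (median 0.42) and Hoxd11 of the posterior list (77.5 and 66.2 CPM, -0.23) were counted. Hoxb3 had 102 and 128 CPM, against 13.7 and 3.67 in other nuclei. Of the sex-linked genes, Xist had 0 UMIs in both libraries, and Uty (213 and 133 UMIs), Kdm5d (49 and 29), Ddx3y (56 and 51) and Eif2s3y (66 and 52) were found in both. Of the absorptive epithelial markers 6 of 8 were counted, with a median of 0.42 and 0 called, against 4.37% of all genes.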
